A study of Acanthocheilonema viteae with 2 samples.

Results

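The predicted candidates are small RNAs in the secretions of adult Acanthocheilonema viteae, a filarial nematode of rodents, that carry no miRNA family name in the deposited table. They were chosen as the entries whose names start with PC, less 6 names that resemble the miR-36, miR-2 or miR-58 families, and entries with the same mature sequence were merged. This gave 35 sequences, on 36 of the 384 deposited entries, out of 303 different sequences in all. Secretions of adult females and adult males, cultured apart for up to 3 weeks in RPMI-1640 medium with penicillin, streptomycin and L-glutamine, were compared with 1 library per sex. The RNA came from the washed pellet of a 100000 g spin of cleared, filtered and frozen medium. No strain, worm age or number of worms per library was used here, and no cell or tissue of the worm can be told from such a pellet. With 1 library per sex the sexes could not be tested against each other, so every ratio compares these 2 libraries and its 95% interval covers counting error only.

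miRNAs are cut from hairpin precursors by the enzymes Drosha and Dicer, which leave a duplex of the 5p and the 3p arm with a short overhang at each 3′ end. Usually 1 strand, the guide, is loaded into an Argonaute protein and kept, while the other, the passenger, is mostly degraded. The seed, nucleotides 2 to 8 of the guide, pairs with target mRNAs, and miRNAs that share a seed are grouped into a family. A prediction program calls a candidate where reads fall on a stretch that can fold as a hairpin, and the 5p or 3p in its name gives the arm of that predicted hairpin. Filarial nematodes release miRNAs in extracellular vesicles and in other particles that such a spin collects.

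The sequences below are those of 4 of the 5 candidates with the most reads and of the candidate most in excess among male reads, written 5′ to 3′ with the seed in capitals, in DNA letters as deposited.
PC-3p-117_2488: tCACTGGGagtactattctttt
PC-3p-457_786: tAACACAGgatgatacggctgc
PC-3p-455_788: cCAGATCTatcctttggctga
PC-5p-1490_274: aAGAAGAGagtgatctgttaact
PC-5p-8384_52: tTTTGGTTgaacagttcttgtttt

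A few candidates held most of the reads. All 35 together had 6792 female and 1199 male reads, which was 2.32% of the female reads (95% interval 2.27 to 2.38) against 1.60% in the male library (1.51 to 1.69). The 5 most abundant took 79.7% of the candidate reads in the female library and 72.3% in the male. PC-3p-117_2488 led in both libraries, with 2868 female and 456 male reads, or 0.980% (0.944 to 1.02) and 0.609% (0.554 to 0.667) of all reads. Among the sequences of the whole table it ranked 17 (female) and 37 (male).

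The second rank differed between the libraries. In the female library it was PC-3p-457_786, with 910 female and 64 male reads. In the male library it was PC-3p-455_788, with 666 female and 162 male reads, and the third was PC-5p-8384_52, with 5 female and 138 male reads. PC-5p-1490_274 had 501 female and 104 male reads. At the other end 19 candidates held 10 to 99 reads over both libraries and 6 held fewer than 10. The median candidate had 39 reads, against 139 for the 86 nematode-named sequences.

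**Figure D1:**
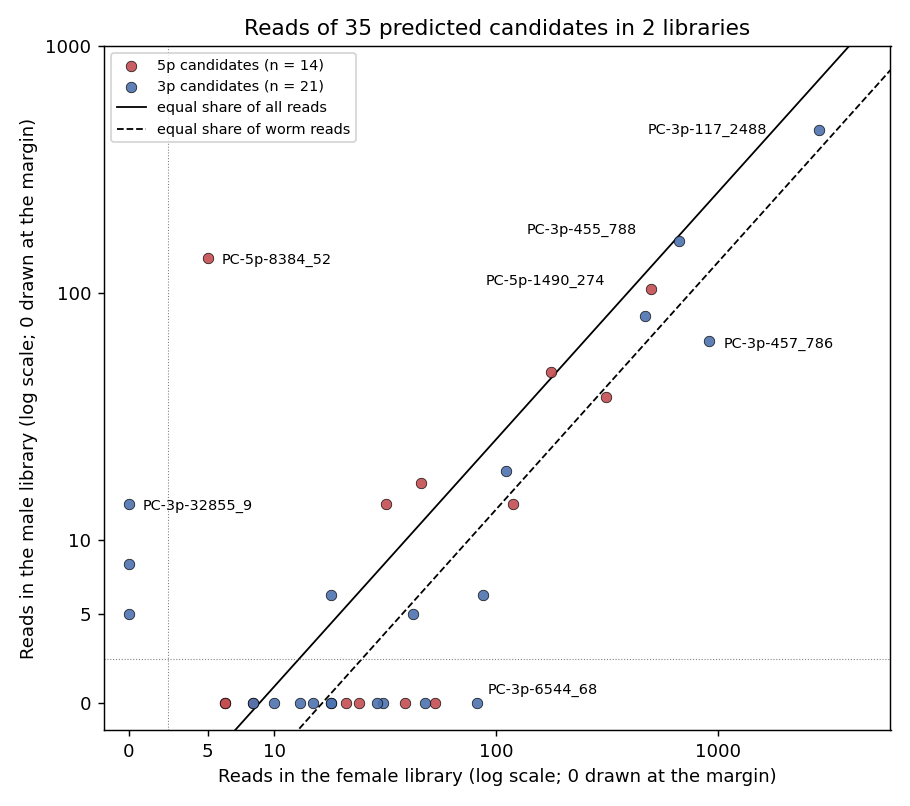
Reads of each of the 35 candidates in the female library (x axis) and in the male library (y axis), both on log scales with 0 drawn at the margin; red points are 5p and blue points 3p candidates, and the lines mark equal shares of all reads and of worm reads. Most candidates with over 100 reads lie between or near the lines, PC-5p-8384_52 (5 female, 138 male reads) lies far above them, and 17 candidates lie on the lower margin, listed at 0 in the male library.

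The 3p candidates outnumbered the 5p candidates and held most of the reads. By name 21 were 3p and 14 were 5p. The 5p candidates took 19.9% of the candidate reads in the female library (18.9 to 20.8) and 31.1% in the male library (28.5 to 33.8). Without PC-3p-117_2488 these shares were 34.4% and 50.2%, so in the male library the lead of the 3p arm rested on that sequence. As shares of all reads the 5p candidates were nearly level between the libraries, 0.461% and 0.498% with a female-to-male ratio of 0.926 (0.825 to 1.04). That level share leaned on PC-5p-8384_52, which held 138 of the 373 male and 5 of the 1350 female 5p reads. The 5p ratio without PC-5p-8384_52 was not computed. The 3p candidates were 1.69-fold higher in the female library (1.57 to 1.82), with 1.86% and 1.10% of all reads. By shares of worm reads, that is of nematode-named sequences plus all entries starting with PC, the 5p ratio was 0.482 (0.429 to 0.542) and the 3p ratio 0.877 (0.815 to 0.945), so the 3p excess turned to the male side.

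Candidates had the length of miRNAs, and they began with U less often by count than by reads. The median length was 22 nt in both arms, as in the nematode-named sequences, and 24 of the 35 candidates were 21 to 23 nt long, against 66 of the 86 nematode-named sequences. Under 20 nt were 4 candidates, PC-5p-21950_17 and PC-5p-42155_6 at 18 nt and PC-5p-10080_43 and PC-3p-18000_22 at 19 nt, against 2 nematode-named sequences. At 24 nt were 4 of the 14 5p and 2 of the 21 3p candidates. U, a common first base of guide strands, opened 14 candidates, A 12, C 7 and G 2. By arm it opened 10 of the 21 3p and 4 of the 14 5p candidates, and it opened 46 of the 86 nematode-named sequences. U-first candidates, among them PC-3p-117_2488, PC-3p-457_786 and PC-5p-8384_52, held 68.0% of female and 63.7% of male candidate reads. Among 5p candidates U-first sequences held 7.19% of female and 40.8% of male reads, and the latter were mostly the 138 reads of PC-5p-8384_52. Median GC content was 43.5% in candidates and 45.5% in nematode-named sequences.

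**Figure D2:**
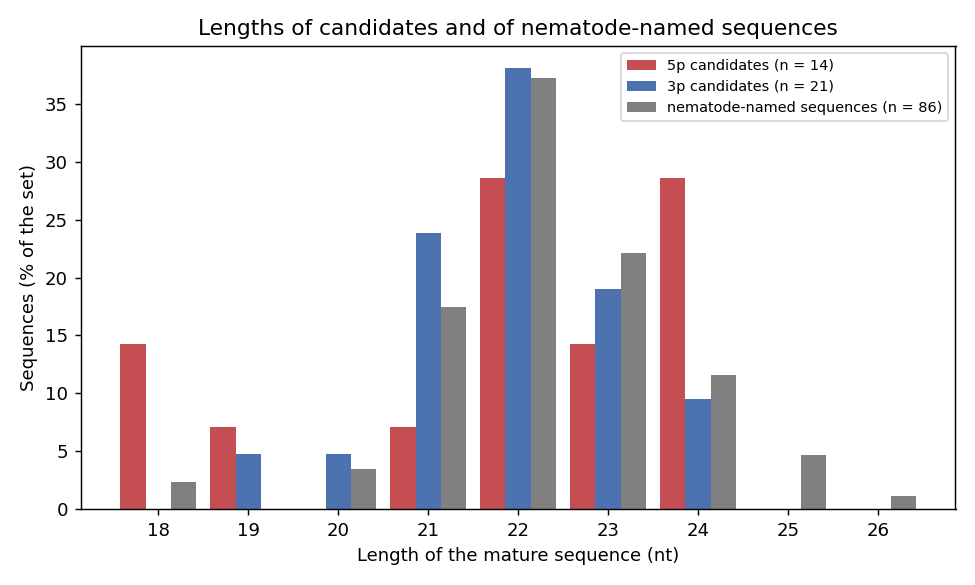
Length of the mature sequence in nt (x axis) and percent of the set (y axis) for the 14 5p candidates, the 21 3p candidates and the 86 nematode-named sequences. All 3 sets include 22 nt as a most frequent length, which the 5p candidates share with 24 nt (4 sequences each).

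Most candidates were read in the female library alone or in both libraries. Of the 35, 15 were read in both, 17 in the female library alone and 3 in the male library alone. Of the 86 nematode-named sequences, 64 were read in both, 20 in the female alone and 2 in the male alone. Detection followed abundance: candidates read in both libraries had 24 to 3324 reads in all (median 143), those of the female library alone 6 to 82 (median 18) and those of the male library alone 5 to 14.

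A value of 0 may stand for a few reads. The smallest value above 0 of any candidate in a library was 5 reads. Over all sequences 264 female and 244 male values were above 0, and only 1 of each was under 5. A candidate listed at 0 was therefore set to 5 reads in ratios, and no fold was given where it came out under 1 on the side where it was read. This makes the fold a lower bound as far as the 0 is concerned, with counting error left out. Because the female library held 292740 reads over the deposited entries and the male library 74881.3, 5 male reads correspond to the share of 19.5 female reads. By shares of all reads 8 of the 17 candidates of the female library alone would have been above 5 male reads at an equal share. By shares of worm reads 5 male reads correspond to 37.5 female reads, and 4 of the 17 would have been.

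The 4 above it by either share were PC-3p-6544_68, with 82 female reads, PC-5p-9561_45, with 53, PC-3p-26724_13, with 48, and PC-5p-16461_24, with 39. The 4 above it by all reads alone were the next. PC-3p-18000_22 had 31, PC-3p-32892_9 had 29, PC-5p-21950_17 had 24 and PC-5p-36761_8 had 21, and all 8 were listed at 0 in the male library. An equal share of all reads would have given these 8 from 5.37 to 21.0 male reads. Counting error can bring an expected count near 5 below 5, so a listed 0 does not set all 8 apart from an equal share. The remaining 9 candidates of the female library alone could not be told from an equal share at this depth by either share. PC-3p-27269_12 and PC-3p-32064_10 had 18 female reads each, PC-3p-34035_9 had 15, PC-3p-26423_13 had 13 and PC-3p-32321_10 had 10. Whether PC-3p-34035_9 or any other candidate is a fragment of ribosomal or other RNA was not checked. PC-5p-36922_8 and PC-3p-36939_8 had 8 each, and PC-5p-46321_6 and PC-5p-42155_6 had 6 each. The male library alone held PC-3p-32855_9, with 14 reads, PC-3p-37196_8, with 8, and PC-3p-48972_5, with 5.

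By shares of all reads more candidates passed a 2-fold difference toward the female than toward the male library, but zeros limit what these counts can show. Among the 29 candidates with at least 10 reads in a library, 8 passed 2-fold in favour of the female library and 2 in favour of the male, by their shares of all reads. The background over all 250 such sequences of the table was 15.6% toward the female and 58.0% toward the male, most of the latter mammal-named. Among the 75 nematode-named sequences with enough reads it was 29.3% and 24.0%. The candidates' 27.6% toward the female is near the nematode-named background. Their 6.9% toward the male is lower, a difference of shares over few sequences that was not tested. By the rule for zeros, a sequence read in the female library alone could not pass toward the male. That held for 13 of the 29 candidates and 12 of the 75 nematode-named sequences. The lower male share cannot be told apart from this limit. The rule was also uneven for sequences read in the female or the male library alone. PC-5p-16461_24 stayed at 1.995-fold with 39 female reads, whereas PC-3p-32855_9 reached 10.9-fold with 14 male reads.

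The male library held far more mammal-named reads, 51.4% against 6.71% in the female, and this sets the scale of every ratio. On the scale of worm reads, that is nematode-named sequences plus all entries starting with PC, ratios of female to male shares drop by a factor of 1.92. On that scale 1 candidate passed 2-fold toward the female (background 4.8%) and 6 toward the male (65.2%), against 8.0% and 40.0% of nematode-named sequences. On the authors' normalized values, which are not scaled to the library totals, 27 passed toward the female (background 44.4%) and 2 toward the male (25.6%), against 81.3% and 5.33% of nematode-named sequences. The summed candidate share turned with the scale, from 1.45-fold in favour of the female over all reads (1.36 to 1.54) to 1.33-fold in favour of the male over worm reads (1.25 to 1.41). Which of these scales fits the worms' own output was not tested.

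PC-3p-457_786 had the clearest excess in the female library. Its 910 female and 64 male reads gave a ratio of 3.64 over all reads (2.82 to 4.76) and 1.89 over worm reads (1.47 to 2.48), and of the 15 candidates read in both libraries it was the 1 whose interval stayed above 1 on both scales. PC-3p-10687_40, read 87 times in females and 6 times in males, reached 3.71 over all reads (1.64 to 10.4) and 1.93 over worm reads (0.852 to 5.41). PC-3p-6544_68 was read 82 times in the female library and listed at 0 in the male. With 0 set to 5 reads, its female share was 4.20-fold higher on the all-reads scale and 2.18-fold higher on the worm-reads scale. These folds leave out counting error. With it, the interval over all reads was not wholly above 2-fold. No other candidate passed 2-fold toward the female on the worm-reads scale.

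The other 5 candidates on the female side were nearer to the 2-fold line. PC-5p-3853_113 (119 female and 14 male reads) had a ratio of 2.17 (1.25 to 4.10) and PC-5p-2031_206 (313 and 38 reads) one of 2.11 (1.50 to 3.03). PC-3p-21438_17 (42 and 5 reads) had 2.15, with an interval that includes 1 (0.851 to 6.96). PC-5p-9561_45 and PC-3p-26724_13, listed at 0 in the male library, were 2.71-fold and 2.46-fold higher with 0 set to 5 reads. Over worm reads these 5 ratios or lower bounds ran from 1.10 to 1.41, under the 2-fold line. Just outside it over all reads lay PC-5p-16461_24, with 39 female reads and listed at 0 in the male library. It was 1.995-fold higher in the female with 0 set to 5 reads.

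On the male side stood PC-5p-8384_52 and PC-3p-32855_9. PC-5p-8384_52 was read 138 times in males and 5 times in females, a male excess of 108-fold on the all-reads scale (45.1 to 338) and of 207-fold on the worm-reads scale. Its male excess was smaller, 23.1-fold, on the authors' normalized values. PC-3p-32855_9, with 14 male reads and listed at 0 in the female library, was at least 10.9-fold higher over all reads and at least 21.0-fold over worm reads. Among candidates with at least 10 reads in a library these were the 2 largest folds or lower bounds over all reads in either direction. With median-of-ratios scaling PC-3p-32855_9 no longer passed 2-fold toward the male.

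Among the abundant candidates, PC-3p-457_786 and PC-5p-8384_52 were far from equal shares of all reads, and others were nearer to such shares. PC-3p-117_2488 had a ratio of 1.61 over all reads (1.46 to 1.78) and 0.838 over worm reads (0.759 to 0.927), so its side depended on the scale. PC-3p-455_788 had 1.05 over all reads (0.884 to 1.26) and PC-5p-1490_274 had 1.23 (0.996 to 1.54), both intervals including 1. Over worm reads these were 0.547 (0.460 to 0.654) and 0.642 (0.518 to 0.800). Lower ratios over all reads were those of PC-5p-2589_165, 0.943 from 177 and 48 reads, PC-3p-26492_13, 0.767 from 18 and 6 reads, PC-5p-10080_43, 0.692 from 46 and 17 reads, and PC-5p-16255_25, 0.585 from 32 and 14 reads. The intervals of these 4 include 1 over all reads, and over worm reads all 4 passed 2-fold toward the male. On the authors' normalized values the same 4 passed 2-fold the other way, with ratios of 2.73 to 4.40, so their side was set by the scale.

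**Figure D3:**
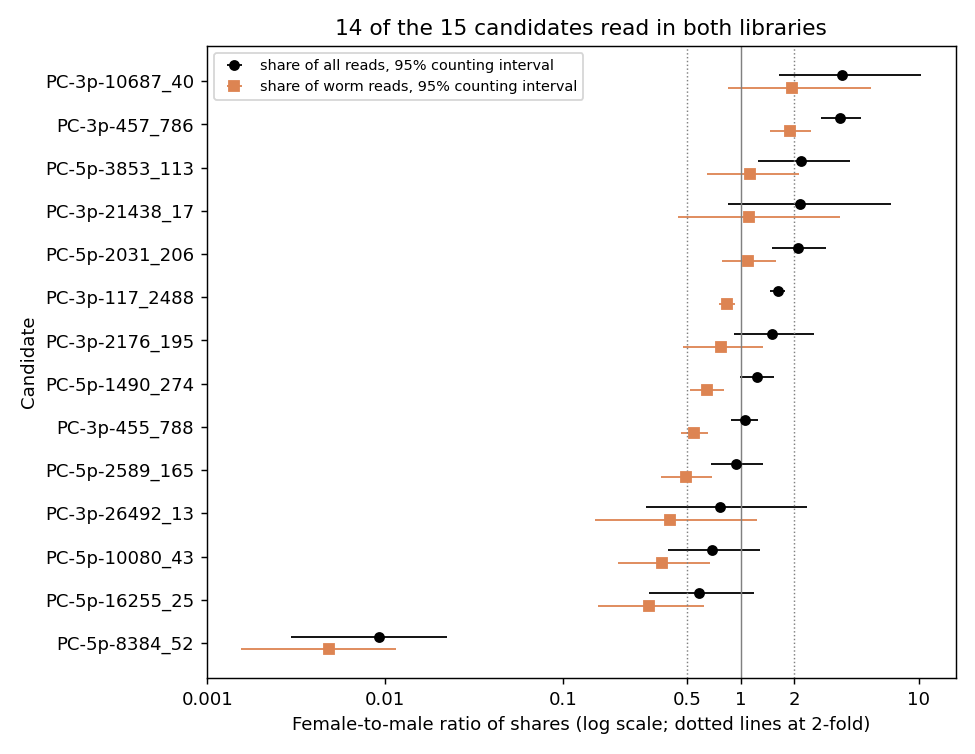
Female-to-male ratio of shares (x axis, log scale) for 14 of the 15 candidates read in both libraries (y axis), as a share of all reads (black circles) and of worm reads (orange squares), with 95% exact counting intervals. PC-3p-457_786 is the 1 candidate whose intervals lie above 1 on both scales, and PC-5p-8384_52 lies far to the left, with a male excess of 108-fold.

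The 4 lowest-energy pairs of a 5p and a 3p candidate that were each other's best partner were complementary over most of their length. They lacked the ends of a Dicer product. The table gives no hairpins, so arms were matched by the pairing energy of the mature sequences, computed with RNAduplex for all 294 combinations of a 5p with a 3p candidate. The median energy was -6.60 kcal/mol. As a yardstick, the 16 pairs of opposite arms that bear the same nematode miRNA name ran from -25.1 to -14.1 kcal/mol, with a median of -19.95. At the limit of -20 kcal/mol 2 candidate pairs were the best partner of each other, and at -15 kcal/mol 4 were. None of the 4 pairs had an overhang of 1 to 3 nt at both 3′ ends, the ends a Dicer product has, which 24 of the 294 combinations (8.16%) and 13 of the 16 named arm pairs had. In the sequences of these 4 pairs below, capitals mark the bases that RNAduplex paired.
PC-5p-21950_17: GCTGCATCGGCTGCGGTA
PC-3p-26724_13: TATCGCAGgaCTGATGCAGCtac
PC-5p-1490_274: aaGAAGAGAGTGATCTGTTaact
PC-3p-10687_40: tcAACGGGTCACTCTCTTCct
PC-5p-16255_25: tgACGAAAcGAAGTTATATGtaat
PC-3p-48972_5: tTATATAACTTCtTTTCGTga
PC-5p-8384_52: TTTTGGTTGAAcAGTTCTtgtttt
PC-3p-32855_9: acAGAACTaTTCAATCAAAAat

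The pair of PC-5p-21950_17 with PC-3p-26724_13 had the lowest energy, -28.1 kcal/mol over 18 base pairs, with 3′ overhangs of 0 and 3 nt. Both sequences were read in the female library alone, 24 times for the 5p and 48 times for the 3p candidate. The pair of PC-5p-1490_274 with PC-3p-10687_40 had -27.8 kcal/mol over 17 base pairs, with 3′ overhangs of 2 and 0 nt. Here the 5p candidate was the more abundant in both libraries, with 85.2% of the pair's female reads (82.1 to 88.0) and 94.5% of its male reads (88.5 to 98.0). The 3p candidate had 87 female and 6 male reads, so the pair was more uneven in the male library, with counting intervals that do not overlap.

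The other 2 pairs lay between the limits, and both sequences of each were read in the male library. PC-5p-8384_52 with PC-3p-32855_9 had -18.1 kcal/mol over 17 base pairs and 3′ overhangs of 4 and 2 nt. They were the 2 candidates on the male side, with 138 and 14 male reads against 5 and 0 female reads, and the 5p candidate took 90.8% of the male reads of the pair (85.0 to 94.9). PC-5p-16255_25 with PC-3p-48972_5 had -18.6 kcal/mol over 17 base pairs and 3′ overhangs of 3 and 0 nt. The 5p candidate had 32 female and 14 male reads, and the 3p candidate 5 male reads and 0 in the female library. Just outside the -15 kcal/mol limit lay PC-5p-2031_206 with PC-3p-37196_8 at -14.9 and PC-5p-3853_113 with PC-3p-32064_10 at -14.8 kcal/mol. Both were within the range of the named arm pairs and had an overhang of 1 to 3 nt at each 3′ end. However, PC-3p-37196_8 paired better with bma-mir-5364-p5_1ss8AG, at -22.3 kcal/mol. PC-5p-2031_206 paired better with the mammal-named bta-miR-181b, at -18.5 kcal/mol. PC-3p-37196_8 and PC-3p-32064_10 are also near-copies of named miRNAs, as given below.

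**Figure D4:**
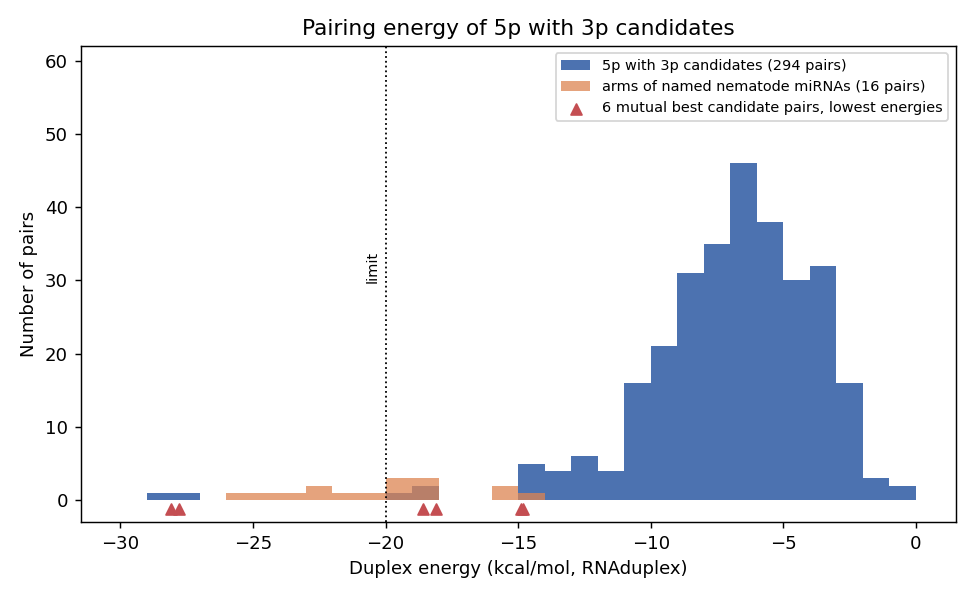
Pairing energy in kcal/mol (x axis) and number of pairs (y axis) for the 294 combinations of a 5p with a 3p candidate (blue) and for 16 pairs of opposite arms of named nematode miRNAs (orange); triangles mark the 6 mutual best candidate pairs of lowest energy and the dotted line the limit of -20 kcal/mol. The bulk of the combinations lies around the median of -6.60, and 2 candidate pairs lie below the lowest named pair at -25.1.

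Other candidates were complementary to sequences that bear a miRNA name. Against all 268 other sequences, 12 of 9380 combinations reached -20 kcal/mol, or 0.128%, and they involved 8 candidates. In 8 of the 12 combinations each strand overhung the other by 1 to 3 nt at its 3′ end, as the strands of a Dicer product do. Over all 9380 combinations 7.72% had such ends, and of the 16 named arm pairs 13 did. The candidates with such ends and a worm partner are shown with that partner, paired bases in capitals.
PC-5p-46321_6: CGTACTTCTTTGCATTgCCAt
asu-miR-1-3p_R-1: TGGAATGTAAAGAAGTATGt
PC-5p-2589_165: cCACCTGAAACTggGtCTCAacct
bma-miR-87a_R+1: gTGAGCaaAGTTTCAGGTGttt
PC-3p-26423_13: CACGATTCtGTTCACGGGTaga
bma-miR-100c_R+2_1ss12CT: aACCCGTaGAATtGAAaTCGTGtt
PC-5p-9561_45: aGGATAATGTTTCaCGGtTGAgc
PC-3p-65_3608: TCACCGGAGACATTGTTCcact

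PC-5p-46321_6 paired with miR-1, a muscle miRNA of animals, at -23.8 kcal/mol over 19 base pairs. It had 6 female reads beside the 1516 female and 280 male reads of asu-miR-1-3p_R-1. The same energy was reached with the mammal-named bta-miR-1_1ss21AT (24 female reads, listed at 0 in the male library). PC-5p-2589_165 paired with bma-miR-87a_R+1 at -23.7 kcal/mol over 16 base pairs and with bma-miR-87b_R+1 at -20.0. It had 177 female and 48 male reads beside 1467 and 236 for miR-87a, and a ratio of 0.943 (0.682 to 1.33) beside 1.59 (1.38 to 1.83).

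PC-3p-26423_13 paired with bma-miR-100c_R+2_1ss12CT, a member of the miR-100 family, at -22.0 kcal/mol over 18 base pairs with a 2-nt overhang at each 3′ end. It had 13 female reads beside the 7197 female and 927 male reads of miR-100c. PC-5p-9561_45 paired at -21.1 kcal/mol with the left-out candidate PC-3p-65_3608 and with bma-miR-36c-3p_R-1_1ss20GA, which is that sequence without its last base. The miR-36 family acts in the early embryo of Caenorhabditis elegans. PC-5p-9561_45 had 53 female reads and was listed at 0 in the male library, where an equal share of all reads would have given 13.6. Its partners had 4400 and 41634 female reads and 552 and 5292 male reads. In these 4 cases the candidate was the rarer strand in each library in which it was read.

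The remaining combinations at -20 kcal/mol were of other kinds. PC-5p-36761_8 (21 female reads) paired with asu-lin-4-5p_1ss19TC at -23.4 kcal/mol through 14 base pairs at the 3′ sides of both strands, without the ends of a Dicer product. lin-4 times larval development in C. elegans. PC-3p-37196_8 paired at -22.3 kcal/mol with bma-mir-5364-p5_1ss8AG and is itself a longer form of miR-5364. PC-3p-21438_17 and PC-3p-26724_13 paired with the mammal-named aja-miR-331_R+1 at -21.4 and ggo-miR-503_R-1 at -20.4 kcal/mol, and the last combination was PC-5p-2589_165 with cgr-miR-423-3p at -20.2. No genome was used, so none of these matches shows that 2 strands come from the same hairpin.

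The label of no known family did not hold for every candidate. Of the 35, 6 had the seed of a sequence with a miRNA name in the same table, and with nucleotides 2 to 7 alone 8 had one. No 2 candidates shared a seed with each other, so the 35 sequences had 35 different seeds. The 6 candidates and a named sequence with the same seed are shown with the seed in capitals; PC-3p-2176_195 is followed by the left-out candidate closest to it.
PC-3p-32064_10: tGAGATCAtgccacatccgtcc
asu-miR-81b-3p_1ss18TC: tGAGATCAtgccacatccgtct
PC-3p-37196_8: cGAGGTATtgtttattggctgaaa
bma-miR-5364: cGAGGTATtgtttattggctga
PC-3p-2176_195: cATCACAGgcccaatgcagcgagt
PC-3p-281_1188: cATCACAGgcccaatgcagcgagc
bma-miR-2a: tATCACAGccagctttgatgt
PC-3p-26492_13: aTAAAGCTagacgaccggagtaa
bma-miR-9-3p: aTAAAGCTaggttaccaaagct
PC-3p-32892_9: tGACTAGAggtgtactcggc
bma-miR-279_R+1: tGACTAGAaccatactcagct
PC-3p-6544_68: tACTGGCCtttcaaactccaaga
bta-miR-193a-3p: aACTGGCCtacaaagtcccagt

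Near-copies of other sequences were 3 of the candidates, and each differed from its neighbour at the 3′ end alone. PC-3p-32064_10 differed from asu-miR-81b-3p_1ss18TC, a worm miRNA of the miR-58 family, at the last of 22 positions. It had 18 female reads beside 1861 female and 405 male reads, 0.958% of their summed female reads. PC-3p-37196_8 was bma-miR-5364 with 2 more nucleotides at its 3′ end, and it had 8 male reads beside 840 female and 574 male reads of that miRNA. PC-3p-2176_195, with the seed of the miR-2 family, differed from the left-out candidates PC-3p-281_1188 and PC-3p-1225_324 at the last of 24 positions. It had 111 female and 19 male reads beside 2825.5 and 437 for the first of these, 3.78% and 4.17% of their summed reads. Beside the 396 female and 77 male reads of PC-3p-1225_324 its share was 21.9% and 19.8%. It also holds the left-out PC-3p-7656_58 whole, with 4 more nucleotides at the 3′ end, and had 42.9% and 52.8% of the reads of that pair. Its ratio of 1.49 over all reads (0.913 to 2.58) lay beside 1.65 for PC-3p-281_1188 (1.50 to 1.83).

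The other 3 shared the seed and lay 6 or 8 edits from a named sequence with it. PC-3p-26492_13 (18 female and 6 male reads) had the seed of bma-miR-9-3p (778 and 92 reads) and lay 8 edits from it over the whole sequence. PC-3p-32892_9 (29 female reads) had the seed of bma-miR-279_R+1 and bma-miR-45 and lay 6 edits from the former. The female-to-male ratios of these 2 named miRNAs went opposite ways, 0.579 and 28.5, and PC-3p-32892_9 was listed at 0 in the male library. PC-3p-6544_68 had the seed of the mammal-named bta-miR-193a-3p and cja-miR-193, with 6 edits to the former. It was read in the female library alone, whereas those 2 sequences had 8 and 17 female and 19 and 31 male reads and had male excesses of 9.28-fold and 7.13-fold. Apart from the near-copies, the nearest other sequence of the table lay 6 to 10 edits away for each of the 32 candidates, 8 for the abundant PC-3p-117_2488 and 6 for PC-3p-457_786. For PC-3p-457_786 the nearest were bma-miR-2c_R+1_1ss1CT and the left-out PC-3p-1163_341, both with the miR-2 seed, which it does not share. PC-3p-26724_13 was also nearest to sequences with that seed, bma-miR-2c_R+1_1ss1CT and PC-3p-281_1188, at 7 edits.

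Of the 10 candidates with 100 reads or more over both libraries, 8 had neither a named seed nor a named partner at -20 kcal/mol. They included PC-3p-117_2488, PC-3p-457_786, PC-3p-455_788, PC-5p-1490_274, PC-5p-2031_206, PC-5p-8384_52 and PC-5p-3853_113. Together they held 5850 of the 6792 female and 1057 of the 1199 male candidate reads, so most candidate reads fell on sequences with no such match in the table at these limits. This holds for the candidates kept and follows in part from how they were chosen. The 6 names left out because they resemble known families had 10408 female and 2066 male reads, more than the 35 candidates. At a laxer -18 kcal/mol PC-3p-457_786 had a mammal-named partner, age-miR-21_R+1 at -18.4 with the ends of a Dicer product, and PC-5p-2031_206 had bta-miR-181b at -18.5 without them. The remaining 2 of the 10, PC-5p-2589_165 and PC-3p-2176_195, were those with a named partner or seed.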

How the data were processed

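Small RNA of 1 female and 1 male library was made into libraries with an Illumina TruSeq kit, per the labels' protocols. For the aligner, the hairpin prediction and the genome build, names were not given in the sources used here. Raw columns hold expected counts, per the file headers. From the values, the authors appear to have divided reads between entries with the same sequence. Entries with the same sequence were therefore summed, which joined 1 repeated candidate. The normalized signal deposited by the authors is the raw column times 1.09 (female) or 0.915 (male) and was used as an alternative. Columns of per-sample values left unused numbered 0. Parts of reads were rounded for intervals and edgeR.

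Shares of all reads were compared at a minimum of 10 reads in a library and a 2-fold size rule, with exact (Clopper-Pearson) 95% intervals for shares and conditional ones for ratios; without molecular identifiers reads may repeat molecules, and intervals leave that out. A library listed at 0 was set to 5 reads, a value chosen after seeing the data, in place of the usual 3. Pairing used RNAduplex (ViennaRNA 2.7.2) at 37 °C. Edits are substitutions, insertions and deletions. Other tools were Python 3.11.15, scipy 1.17.1, R 4.3.3 and edgeR 4.0.16, the last for scaling factors alone.

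Candidates named are the 10 with the most reads and the 10 largest ratios in each direction, those read in 1 library alone with at least 10 reads, those in complementary pairs and those that share a seed; the others are also given, except 1 that is not reported here by itself and stays in counts and sums. Members, lists and alternatives were chosen with earlier results of these data known. Coordinates were not used.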

Additional observations from a re-analysis of the deposited data

How the results depend on the processing

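The scale decided most counts. The 8 candidates past 2-fold toward the female became 27 with TMM scaling, 27 with median-of-ratios scaling, 27 on the authors' normalized values and 1 over worm reads. They became 3 with at least 100 reads and 1 with intervals wholly beyond 2-fold. With 3 reads in place of 0 they were 12, an alternative chosen after seeing the data. The 2 on the male side became 6 over worm reads, 4 with no read minimum, and 1 each with median-of-ratios scaling, at least 20 reads and at least 100 reads. The female-to-male ratio of the summed share, 1.45, reversed to 0.754 over worm reads. It moved to 5.98 with TMM, 8.18 with median-of-ratios scaling, 6.77 on the authors' values, 1.62 without the most abundant sequence of each library, 1.35 with the 6 left-out names and 1.35 without PC-3p-117_2488. The cause was not tested beyond the scales themselves. With the left-out names the 5p share of candidate reads was 7.85% female and 11.4% male, and without PC-3p-117_2488 34.4% and 50.2%; seeds shared with named sequences rose from 6 to 12. Mutual best pairs of a 5p and a 3p candidate, 2 at -20 kcal/mol, were 4 at -15 kcal/mol and 9 with any sequence of the table as partner, the last chosen after seeing the data. Counting a candidate as read from 5 male or 20 female reads, also chosen later, left 8 in the female alone and 5 in the male alone. The other alternatives to these results stayed within 1.5 times or within the counting interval. Of the 15 single ratios 9 changed side under at least 1 of the 5 other scalings, and 4 of these were 2-fold apart in opposite directions over worm reads and with TMM, median-of-ratios scaling or the authors' values. The other 6, which were those at least 2-fold apart over all reads, kept their side. No paired analysis was possible because there is 1 library per sex.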
